A study of Mus musculus with 17 samples.

Results

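The core circadian clock genes were followed in the perigonadal fat depot (perigonadal white adipose tissue, pWAT) of mice with and without *U90926*. The group was chosen by name and comprised 10 genes of the 55401 Ensembl gene identifiers in the deposited values, namely *Arntl* (also called *Bmal1*), *Clock*, *Npas2*, *Per1*, *Per2*, *Per3*, *Cry1*, *Cry2*, *Nr1d1* and *Nr1d2*. All 10 had values in every mouse and passed the filter on low values. RNA-seq was performed on whole pWAT of 17 mice, with 1 library per mouse. The groups held 5 WT females, 5 U9-KO females, 3 WT males and 4 U9-KO males. All mice were C57BL/6J littermates from heterozygous breeders, kept on a standard chow. Their cohort was shipped to another site and run through a phenotyping pipeline. The pipeline included food withdrawal, a glucose injection, blood sampling and anesthesia. U9-KO mice are homozygous for a germline deletion of all 5 exons of *U90926*, a gene induced in activated macrophages, so every cell of these mice lacked it. The methods give 16 weeks as the age at collection and the phenotyping schedule gives 19 weeks. The time of day at collection, on which the level of most clock genes depends, is not given in the sources used here.

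The circadian clock is a feedback loop of transcription that runs in nearly every cell with a period of about a day. BMAL1 pairs with CLOCK or with NPAS2, and the pairs bind E-boxes and switch on the *Per* and *Cry* genes, whose proteins return to the nucleus and silence the pair. In a second loop the same activators switch on *Nr1d1* and *Nr1d2*, whose proteins REV-ERBα and REV-ERBβ repress *Arntl*. *Arntl* and the REV-ERB genes are therefore known to peak at opposite times of day, and in fat the clock times the release and storage of lipid. A further layer consists of DBP, TEF and HLF, which activate through D-boxes, and of NFIL3, which represses through the same sites.

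The deposited values were normalized counts, that is read counts per gene divided by a size factor of the library and rounded, so the number of reads behind a value is unknown. Their sum over genes was between 20243688 and 28620744 per mouse. *U90926* itself was listed at 1 in 2 WT mice and at 0 in the other 15 mice, so it could not separate the genotypes. The label of the tissue was checked against *Adipoq*, *Plin1*, *Fabp4*, *Cidec*, *Lep* and *Pparg*, which were all found in every group and together summed to 143313 to 341405 in the females and 367582 to 484856 in the males. In WT female 4 and U9-KO female 1 the sum of 10 ovary genes reached 122887 and 138505, against 3605 to 37320 in the other females and at most 421 in males. The main correlations in females and the genotype differences of the members are given also without these 2 mice, and other values of females are given with them. The size factors appeared to have been set within each sex, so levels of females and males are given side by side and were not tested. In whole tissue, fewer cells of a type and less RNA per cell cannot be told apart.

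The promoters of the members were looked at first, since the loops act through short sites near the start of transcription. RefSeq windows on GRCm38.p6, from 250 bases before to 50 bases after a start site, were found for 9 of the 10 genes (13 windows), with *Per2* missing. The letters searched on both strands were the E-box CACGTG, the core site AGGTCA bound by REV-ERB proteins, the D-box TTATGNAA and the cAMP response element TGACGTCA. Over the 32851 windows searched, which did not cover all genes, they occurred in 7.15%, 16.3%, 3.38% and 1.79%, respectively. The core site was present in windows of *Arntl*, *Clock*, *Per1* and *Nr1d2*, the E-box in those of *Per1* and *Cry1*, the D-box in those of *Per1* and *Per3*, and the cAMP response element in none of the 13. No motif overlapped another in the 4 windows printed here. They are shown for the genes on which the relations between mice turned, and for *Per1*, whose first window held 3 of the 4 motifs. Capitals mark the motif, on either strand, and a match is a description of the letters and no evidence of binding.
Arntl, second RefSeq start, chr7:113207261-113207560, plus strand, AGGTCA starting 31 bases after the start site: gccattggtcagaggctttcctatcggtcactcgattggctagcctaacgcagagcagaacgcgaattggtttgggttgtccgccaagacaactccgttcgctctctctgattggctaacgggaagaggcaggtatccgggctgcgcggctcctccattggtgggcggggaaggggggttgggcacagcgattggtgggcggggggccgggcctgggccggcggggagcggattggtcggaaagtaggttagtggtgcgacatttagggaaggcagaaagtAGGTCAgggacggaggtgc
Nr1d2, chr14:18239057-18239356, minus strand, AGGTCA starting 77 bases before the start site: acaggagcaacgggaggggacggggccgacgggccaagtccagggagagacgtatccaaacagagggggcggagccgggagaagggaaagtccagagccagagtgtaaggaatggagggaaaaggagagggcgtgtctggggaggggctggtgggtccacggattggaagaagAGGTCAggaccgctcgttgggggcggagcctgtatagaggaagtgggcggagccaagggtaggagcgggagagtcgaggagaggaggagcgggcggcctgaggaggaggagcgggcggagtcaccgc
Per3, chr4:151044616-151044915, minus strand, TTATGTAA starting 205 and 158 bases before the start site: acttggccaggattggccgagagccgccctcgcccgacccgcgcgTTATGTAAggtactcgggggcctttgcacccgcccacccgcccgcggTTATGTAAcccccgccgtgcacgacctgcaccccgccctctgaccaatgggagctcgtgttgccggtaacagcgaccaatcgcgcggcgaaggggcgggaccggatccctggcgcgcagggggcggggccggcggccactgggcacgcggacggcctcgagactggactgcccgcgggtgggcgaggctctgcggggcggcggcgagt
Per1, first RefSeq start, chr11:69098699-69098998, plus strand, CACGTG at 166, TGACCT (the reverse complement of the core site) at 137 and TTATGCAA at 24 bases before the start site: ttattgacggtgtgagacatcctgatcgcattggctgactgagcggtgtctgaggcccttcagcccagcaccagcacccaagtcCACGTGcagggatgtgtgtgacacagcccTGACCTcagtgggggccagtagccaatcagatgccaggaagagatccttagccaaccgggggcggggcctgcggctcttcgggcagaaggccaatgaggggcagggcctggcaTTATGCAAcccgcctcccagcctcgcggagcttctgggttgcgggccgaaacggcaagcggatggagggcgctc

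Per kilobase of exon, *Nr1d1* was the most abundant of the 10 in each of the 17 mice, with 521 ± 150.1 normalized counts per kb in females (SD, n = 10) and 691 ± 204 in males (SD, n = 7). *Cry2*, *Per1*, *Nr1d2* and *Clock* followed in both sexes, at 169 to 216 normalized counts per kb in females and 178 to 307 in males. These neighbours changed places from mouse to mouse, except that *Cry2* ranked 2nd in every male. In females *Cry2* was above *Per1* in 6 of 10 mice and *Per1* above *Nr1d2* in 6 of 10. In males *Cry2* was above *Per1* in 7 of 7 mice, *Per1* above *Nr1d2* in 5 of 7 and *Nr1d2* above *Clock* in 3 of 7. A gap without overlap separated *Clock* from the lower genes in females, namely *Arntl* at 106, *Cry1* at 96.4, *Npas2* at 79.1, *Per3* at 59.9 and *Per2* at 53.6 normalized counts per kb. In males the order of the lower genes was *Per3* at 147, *Arntl* at 124, *Cry1* at 96.7, *Per2* at 64.3 and *Npas2* at 34.4, and their ranges overlapped those of their neighbours. *Npas2* and *Per3* thus held other places in the 2 sexes. The order of means among *Arntl*, *Cry1*, *Per3* and *Per2* is descriptive, since each pair of neighbours overlapped over the mice of a sex.

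**Figure D1:**
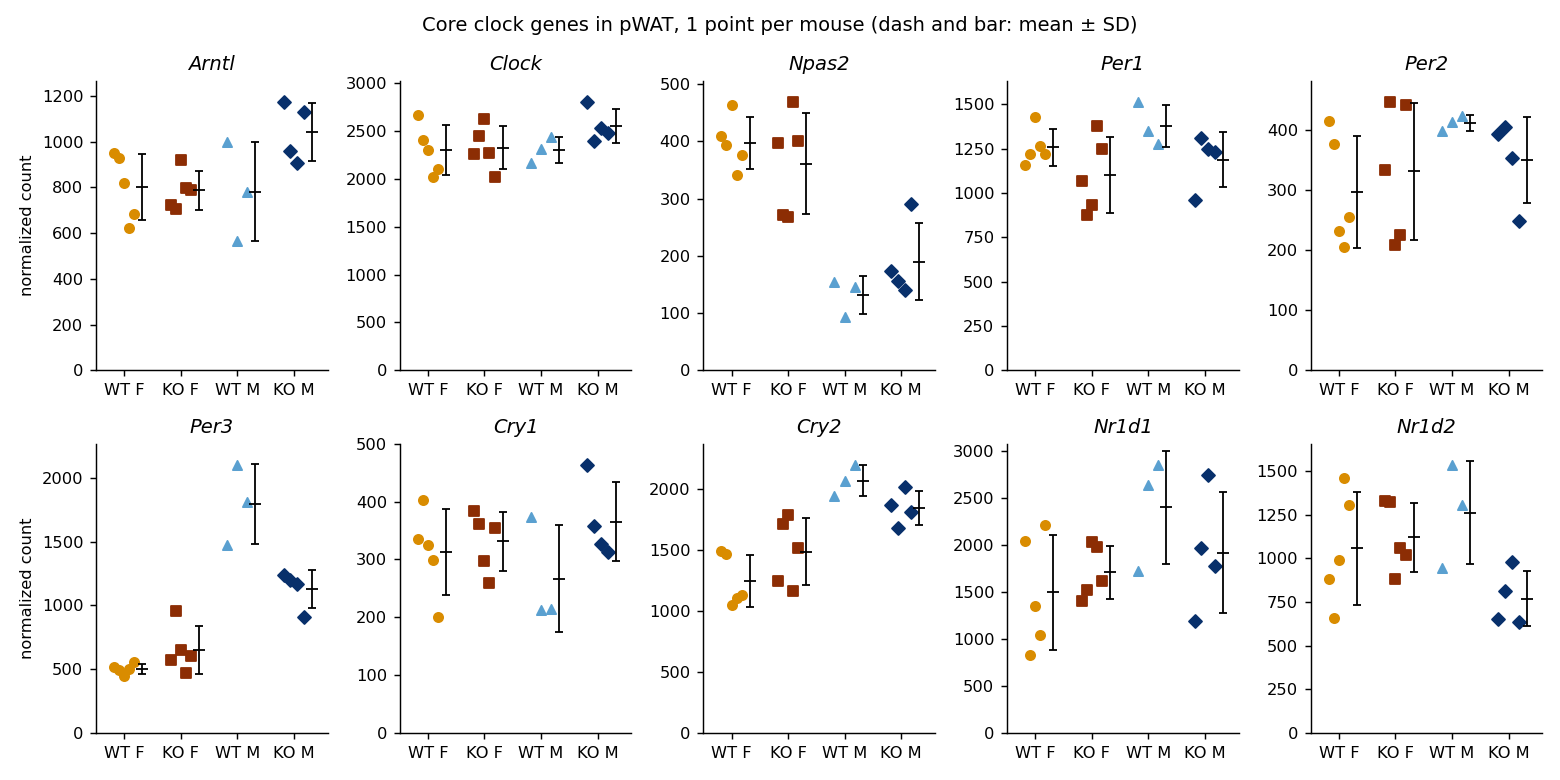
Normalized count of each core clock gene (vertical axis, from 0) in every mouse, by genotype and sex (horizontal axis), with mean ± SD beside the points. *Per3* lies between 913 and 1236 in U9-KO males, below the 1476 to 2100 of WT males, while the groups overlap for the other 9 genes.

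The activators were compared between genotypes first. *Arntl* (ENSMUSG00000055116, chromosome 7, 113207465 to 113314126 on GRCm38, plus strand) encodes BMAL1, the partner without which the loop stops. Its normalized counts were 951, 927, 820, 622 and 684 in WT females and 722, 707, 919, 798 and 789 in U9-KO females. They were 998, 564 and 781 in WT males and 1172, 961, 908 and 1131 in U9-KO males. The U9-KO females lay inside the wider range of the WT females, and in males only WT male 1 stood among the U9-KO mice. The log2 difference of U9-KO from WT was -0.01 (SE 0.13) in females and 0.45 (SE 0.17) in males, with limma's adjusted p of 1 and 0.621. *Clock* (ENSMUSG00000029238, chromosome 5, 76209868 to 76304792, minus strand), the usual partner of BMAL1, was the steadiest member, at 2016 to 2671 in the females and 2165 to 2800 in the males. Its coefficient of variation was 9.88% over the females and 8.07% over the males, and the genotypes overlapped in both.

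*Npas2* (ENSMUSG00000026077, chromosome 1, 39193731 to 39363236, plus strand) encodes a relative of CLOCK that can take its place. Its normalized counts were 410, 393, 463, 341 and 377 in WT females and 397, 272, 268, 468 and 400 in U9-KO females, so that U9-KO females 2 and 3 lay below all other females. In males they were 155, 93 and 146 in WT and 173, 156, 141 and 290 in U9-KO mice, and U9-KO male 4 was the highest. Neither sex separated the genotypes, with log2 differences of -0.16 (SE 0.17) and 0.50 (SE 0.26).

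Among the *Per* genes, which encode the inhibitory PERIOD proteins, *Per3* varied most with genotype and sex. *Per3* (ENSMUSG00000028957, chromosome 4, 151003652 to 151044665, minus strand) had 515, 494, 446, 504 and 553 normalized counts in WT females and 568, 959, 651, 468 and 600 in U9-KO females. It had 1476, 2100 and 1813 in WT males and 1236, 1199, 1168 and 913 in U9-KO males. Each WT male lay above each U9-KO male, whereas in females the genotypes overlapped and U9-KO female 2 stood highest. The male means were 1796 ± 312 (SD, n = 3) and 1129 ± 147 (SD, n = 4). The log2 difference of -0.66 (SE 0.14) ranked *Per3* 17th of 21930 genes by p, but it did not pass limma's test across all genes (adjusted p = 0.612). Without WT male 1 the adjusted p in males was 0.0415, and over all single mice left out it was between 0.0415 and 0.855. *Camta1* overlaps *Per3* on the same strand without sharing exon bases.

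*Per1* (ENSMUSG00000020893, chromosome 11, 69095217 to 69109960, plus strand), which also responds to hormones and stimuli within minutes to hours, was between 1155 and 1430 in WT females and between 874 and 1378 in U9-KO females. It was between 1276 and 1510 in WT males and between 959 and 1312 in U9-KO males, and the genotypes overlapped in both sexes. Its log2 difference was -0.21 (SE 0.13) in females and -0.22 (SE 0.11) in males, and over both sexes with sex as a covariate -0.21 (SE 0.09, unadjusted p = 0.0282, adjusted p = 0.938). *Per1* was the one member with an unadjusted p under 0.05 in the fit over both sexes, where 4.02% of 26289 genes had one and none passed after adjustment. *Per2* (ENSMUSG00000055866, chromosome 1, 91415982 to 91459324, minus strand) spread widely in females, from 205 to 446, with a coefficient of variation of 31.7%. The 3 WT males were close together at 398, 414 and 423, and the 4 U9-KO males ranged from 249 to 405.

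The cryptochromes CRY1 and CRY2 are the stronger repressors of the loop. *Cry1* (ENSMUSG00000020038, chromosome 10, 85131700 to 85185064, minus strand) was between 200 and 403 in females. In males it had 374, 212 and 215 normalized counts in WT and 463, 358, 327 and 312 in U9-KO mice, so that WT male 1 again stood with the U9-KO mice. Its log2 difference in males was 0.48 (SE 0.21, unadjusted p = 0.0431, adjusted p = 0.639 in limma's test). *Cry2* (ENSMUSG00000068742, chromosome 2, 92403646 to 92434043, minus strand) covered 1049 to 1788 in the females and 1676 to 2192 in the males. Its log2 difference was 0.25 (SE 0.15) in females and -0.17 (SE 0.08) in males, and the genotypes overlapped in both sexes. It shares 295 exon bases with *D930015M05Rik* on the other strand, which had at most 80 normalized counts.

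The REV-ERB genes form the second loop. *Nr1d2* (ENSMUSG00000021775, chromosome 14, 18204054 to 18239127, minus strand) had 881, 658, 989, 1460 and 1307 normalized counts in WT females and 1329, 1321, 882, 1057 and 1018 in U9-KO females. In males it had 947, 1534 and 1305 in WT and 654, 812, 977 and 637 in U9-KO mice, and only WT male 1 overlapped the U9-KO range. The log2 difference was 0.12 (SE 0.21) in females and -0.71 (SE 0.18, unadjusted p = 0.00322, adjusted p = 0.612) in males. *Nr1d1* (ENSMUSG00000020889, chromosome 11, 98767932 to 98775333, minus strand) covered 827 to 2212 in the females and 1189 to 2850 in the males, with overlapping genotypes in both. Its 3′ end shares 263 exon bases with *Thra* on the other strand, which had between 2352 and 3880 normalized counts. Whether reads were counted by strand is not given in the sources used here, so how reads of that stretch were counted for *Nr1d1* and *Thra* is not known.

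**Figure D2:**
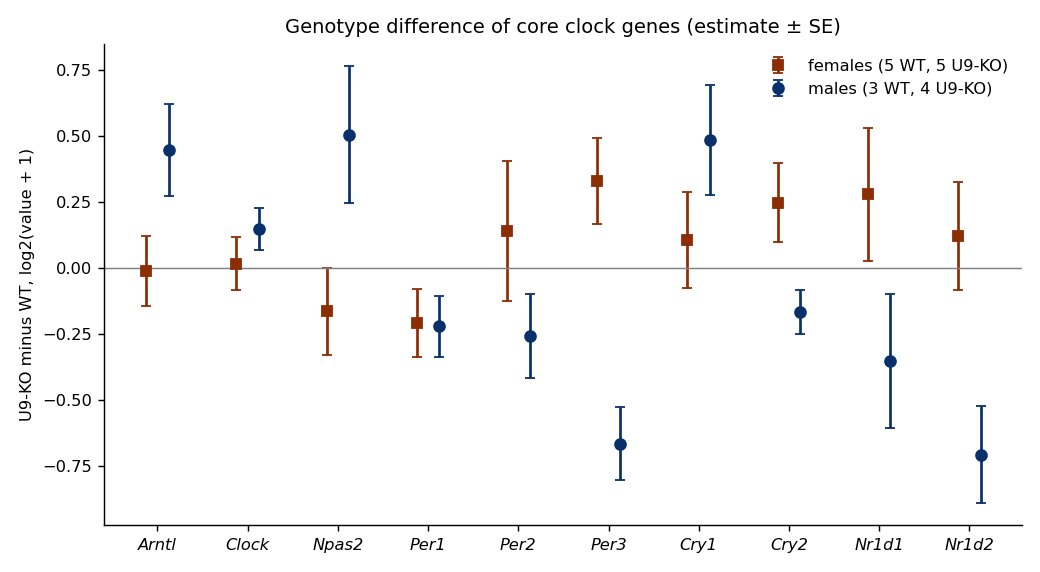
Difference of U9-KO from WT for each core clock gene (vertical axis, log2 of the value plus 1, estimate ± SE of limma's fit) in females (squares) and males (circles). The female estimates lie between -0.21 and 0.33, and those of males between -0.71 and 0.50.

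Over the 10 genes, none passed the adjusted threshold for genotype in females (0 of 24825 genes in all, 0%) or in males (0 of 21930 genes, 0%). These counts are of limma's test on the deposited values. The authors' own test with DESeq2 called some genes in each sex and none over both sexes together. In limma's test without adjustment, 2.23% of all genes in females and 7.60% in males had p under 0.05. In females this held for none of the 10, with 7 estimates above 0 and 3 below and a median of 0.11, against 0.00 over all genes. Without the 2 ovary-rich females the estimates lay between -0.26 for *Npas2* and 0.37 for *Per3*, none passed, and those of *Clock* and *Per2* went from above 0 to below it. In males it held for 4 of the 10, namely *Per3*, *Nr1d2*, *Arntl* and *Cry1*, with adjusted p between 0.612 and 0.639. The median size of the difference, whatever its sign, was 0.40 for the 10 genes and 0.17 for all genes in males, and 0.15 for both in females. In males *Per3* and *Nr1d2*, with *Per1*, *Per2*, *Cry2* and *Nr1d1*, had estimates below 0 and *Arntl*, *Clock*, *Npas2* and *Cry1* above it. *Per3* was the one member whose male genotypes did not overlap, where 7.60% of all genes did not overlap in either direction and 3.80% with U9-KO lower, and no member was free of overlap in females (0.238% of all genes were, in either direction).

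The sum of the adipocyte genes was between 367582 and 462426 in WT males and between 418321 and 484856 in U9-KO males, and that of 6 leukocyte genes between 2443 and 3959 and between 1986 and 2462. All 6 genes of both lists were above 10 in a mouse of each male group, and the part of these differences in the *Per3* and *Nr1d2* values was not tested. The difference between the sexes in the genotype difference was tested by the interaction term over 26289 genes, of which none passed (0%) and 3.46% had an unadjusted p under 0.05. *Per3* had the largest interaction of the members, at -0.995 on the log2 scale (SE 0.24, unadjusted p = 0.000605, adjusted p = 1), which ranked it 10th of all genes by p. *Nr1d2* followed with -0.83 (SE 0.31, unadjusted p = 0.0165) and *Npas2* with 0.67 (SE 0.32, unadjusted p = 0.050), each with an adjusted p of 1.

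Relations between the genes were read from the order of the mice. With 1 library per mouse and no time of day, they show how genes vary together and do not measure phase. *Arntl* and *Nr1d2* ran opposite to each other in both sexes. In females, the 4 mice with the lowest *Arntl*, between 622 and 722, had the highest *Nr1d2*, between 1307 and 1460, and the other 6, with *Arntl* between 789 and 951, had *Nr1d2* between 658 and 1057. The 4 mice were WT females 4 and 5 and U9-KO females 1 and 2, so each genotype gave 2. In males *Nr1d2* was 1534 in WT male 2, which had the lowest *Arntl*, and 637 and 654 in U9-KO males 4 and 1, which had the highest. The range was 2.22-fold for *Nr1d2* and 1.53-fold for *Arntl* from the lowest to the highest female, and 2.41-fold and 2.08-fold in males.

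Pearson's r of *Nr1d2* with *Arntl* was -0.925 in females (n = 10, permutation p = 0.00019) and -0.946 in males (n = 7, exact permutation p = 0.00119). Spearman's rho was -0.927 (permutation p = 0.0004) and -0.929 (exact permutation p = 0.00675). After Benjamini-Hochberg adjustment over the 24824 and 21929 genes correlated with *Arntl*, the permutation p of r was 0.275 and 0.202, and no gene in either sex was under 0.05. Unadjusted, 14.0% of genes in females and 15.1% in males were under 0.05. Without the 2 mice farthest from the median of *Arntl*, r was -0.939 in 8 females (WT females 1 and 4 left out) and -0.907 in 5 males (WT males 2 and 3 left out), where the exact permutation p was 0.0833 and the smallest possible 0.00833. With the genotype means taken out, r was -0.935 and -0.922. Without the 2 ovary-rich females r was -0.900, and within the 6 females with less than 200 normalized counts of *Dbp*, an output gene of the clock, it was -0.749 (exact permutation p = 0.0542).

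As a slope, *Nr1d2* fell by 0.99 on the log2 scale per log2 unit of *Arntl* in males (SE 0.18, adjusted p = 0.0449 in limma's test with genotype as covariate), where 228 of 21929 genes passed (1.04%, of which 106 fell and 122 rose with *Arntl*). It was the one member of the other 9 to pass in males. The call rested on small margins, with adjusted p between 0.0455 and 0.676 when each male was left out, and it passed only without U9-KO male 1. Without the 2 ovary-rich females the slope was -1.60, and over all females it was -1.59 (SE 0.25, adjusted p = 0.209), the 3rd smallest p of 24824 genes, none of which passed (0%). Among 12875 other genes with a mean of at least 50 in each sex, *Nr1d2* was the most opposite to *Arntl* and *Arntl* the most opposite to *Nr1d2*. Genes were ranked here by the less negative r of both sexes.

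**Figure D3:**
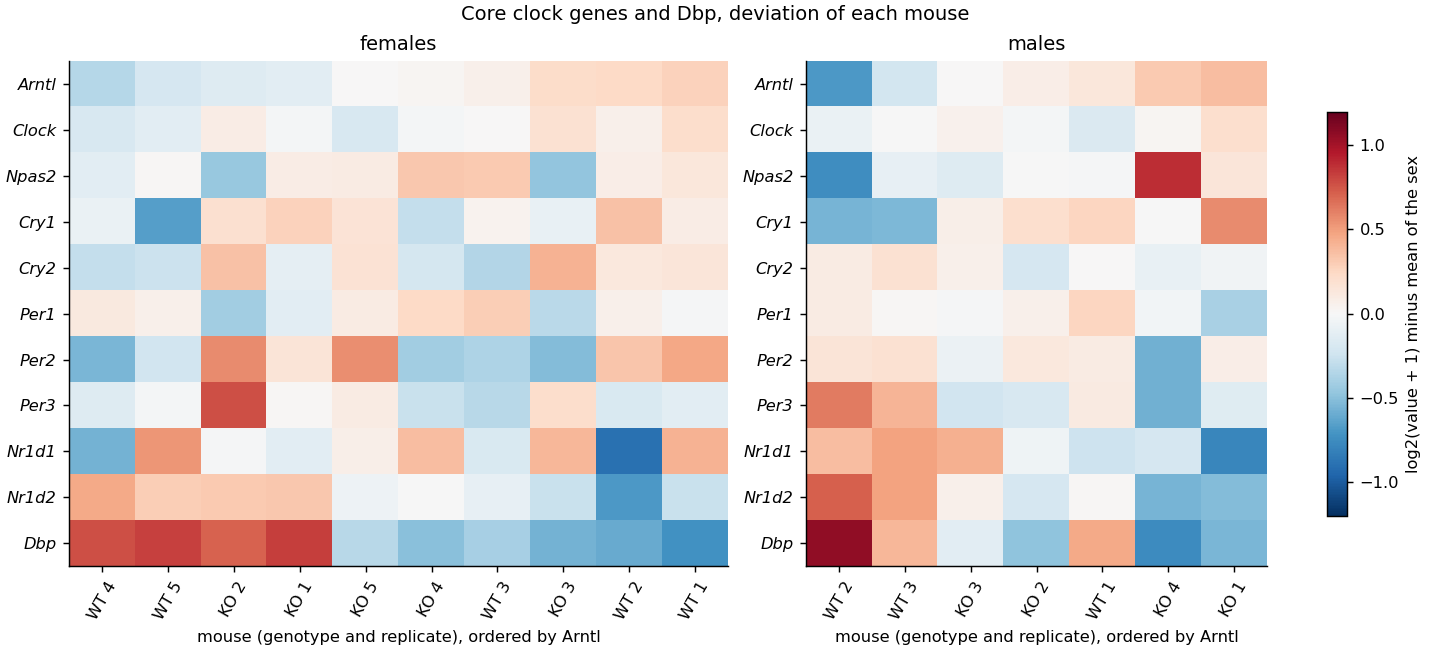
Log2 deviation of each core clock gene and *Dbp* (rows) from the mean of its sex in every mouse (columns, ordered from low to high *Arntl*), with red above and blue below the mean. The 4 females and the males with low *Arntl* at the left have high *Nr1d2* and, in females, *Dbp* between 296 and 324 against 109 to 144 in the other 6.

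*Clock* moved with its partner *Arntl* less closely. In females r was 0.743 (n = 10, permutation p = 0.0155, adjusted 0.296) and rho was 0.745 (permutation p = 0.0175), but without WT females 1 and 4 r was 0.523 (exact permutation p = 0.186), and without the 2 ovary-rich females it was 0.651. In males r was 0.436 (n = 7, exact permutation p = 0.316), and with the genotype means taken out it was -0.032. The other members were weakly related to *Arntl* in females, with r between -0.202 for *Per3* and 0.481 for *Cry2*. Among them *Nr1d1*, the other REV-ERB gene, did not run opposite to *Arntl* in females (r = 0.107, rho 0.0788). Its r was -0.267 without the 2 ovary-rich females. In males *Cry1* (r = 0.847) and *Npas2* (r = 0.829) went with *Arntl* and *Per3* (r = -0.848) and *Nr1d1* (r = -0.752) against it, each with an unadjusted exact permutation p between 0.0151 and 0.0419 and an adjusted p between 0.243 and 0.312. Their rho was 0.786, 0.893, -0.571 and -0.857. Without WT males 2 and 3, r was 0.457, 0.681, -0.333 and -0.866, so the relation of *Per3* and of *Cry1* to *Arntl* rested on those mice. With the genotype means taken out, r was 0.739, 0.739, -0.731 and -0.703, with unadjusted permutation p between 0.0573 and 0.0776. The deviations were permuted across genotypes, so these p are approximate and not exact. Of the other 9 members, 5 in males and 2 in females had a slope on *Arntl* with an unadjusted p under 0.05, where 15.7% and 15.3% of all genes had one.

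*Npas2* and *Per3* formed the second opposed pair. In females the 2 U9-KO mice with the lowest *Npas2*, 272 and 268, had the highest *Per3*, 959 and 651. In males U9-KO male 4 had the highest *Npas2* and the lowest *Per3*, and WT male 2 the reverse. Pearson's r was -0.809 in females (rho -0.673, n = 10) and -0.848 in males (rho -0.607, n = 7). Without the 2 mice farthest from the median of *Npas2*, r was -0.511 in females and -0.244 in males, so in males the relation rested on those mice. Without the 2 ovary-rich females r was -0.865. WT female 3 and U9-KO female 4 had the highest *Npas2*, 463 and 468, and the lowest *Per3*, 446 and 468, of the females. Their sums of 4 oviduct genes were 8066 and 1808, against 125 to 583 in the other females, and the part of these was not tested. *Npas2* was the gene most opposite to *Per3* of the 12875, by the less negative r of both sexes.

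*Per3* went with *Tef*, which encodes an activator known to bind D-box motifs, in both sexes. *Tef*, named here after its values were seen, was between 1115 and 1704 in 9 females and 2892 in U9-KO female 2, the mouse with the highest *Per3*. It had 3233, 3666 and 3566 normalized counts in WT males and 2743, 2417, 2871 and 2218 in U9-KO males, again without overlap. Pearson's r of *Per3* with *Tef* was 0.904 in females (rho 0.685) and 0.944 in males (rho 0.893), the highest smaller r of the 12875 genes. Without U9-KO female 2 it was 0.618, and without the 2 mice farthest from the median of *Per3* it was 0.761 in females and 0.881 in males. Without the 2 ovary-rich females it was 0.917. *Cry2* was 4th among the genes most like *Per3*, with r of 0.701 and 0.697, which fell to 0.477 and 0.288 without the 2 farthest mice.

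**Figure D4:**
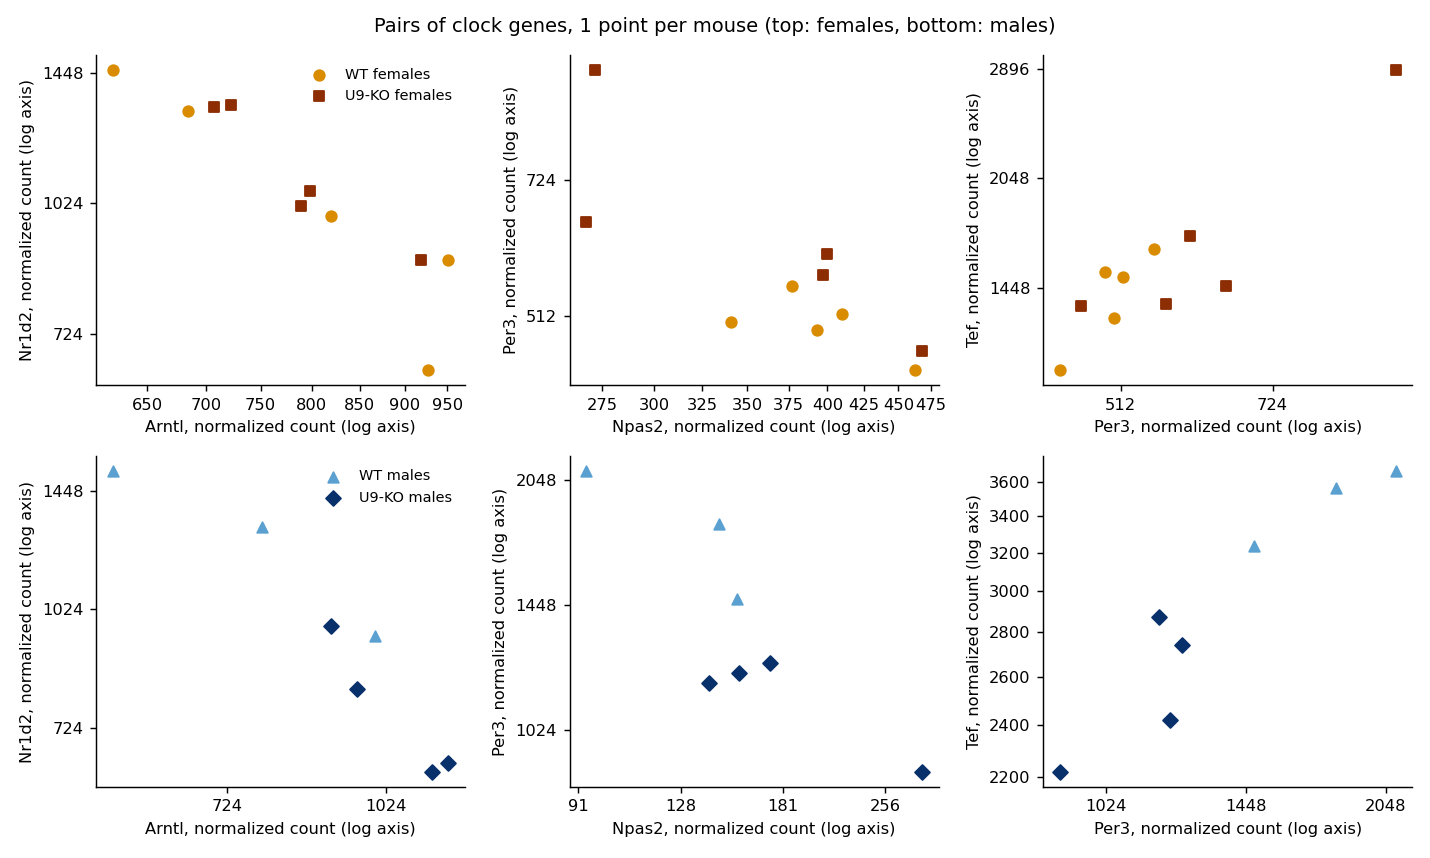
Normalized counts of *Nr1d2* against *Arntl*, *Per3* against *Npas2* and *Tef* against *Per3* (log axes, 1 point per mouse), with females above and males below. *Nr1d2* is lower in mice with higher *Arntl*, at 1460 in the female and 1534 in the male with the lowest *Arntl* and at 881 and 654 in those with the highest, and 1 female stands apart with 959 *Per3* and 2892 *Tef*.

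Of the 45 pairs among the 10 genes, 24 had an r of the same sign in both sexes. An r of at least 0.5 in size was found for 13 pairs in females and 26 in males, and for 6 in both with the same sign. The share over all pairs of genes was not computed for any of these counts. An r of this size arises by chance more easily with 7 males than with 10 females, so the counts of the sexes cannot be compared. The 6 pairs were *Arntl* with *Nr1d2*, *Npas2* with *Per3*, *Per3* with *Cry2*, *Cry1* with *Nr1d1*, *Clock* with *Nr1d2* and *Npas2* with *Cry2*. Without the 2 mice farthest from the median of the first gene, only *Arntl* with *Nr1d2* kept such an r in both sexes. In females r was then -0.0906 for *Npas2* with *Cry2*, -0.388 for *Cry1* with *Nr1d1* and -0.408 for *Clock* with *Nr1d2*. With the genotype means taken out, *Clock* with *Nr1d2* had r of 0.0808 in males. Some pairs had an r of opposite sign in the 2 sexes. *Per1* and *Per3* had r of -0.879 in females and 0.338 in males, and *Npas2* and *Per1* 0.875 and -0.284. The females with the highest oviduct sums, WT female 3 and U9-KO female 4, also had the highest *Per1* of the females, 1430 and 1378. The part of oviduct RNA in these pairs was not tested. With the genotype means taken out, *Per1* and *Per3* had r of -0.839 in females and -0.439 in males. *Npas2* and *Per1* then had 0.871 and 0.0729, so neither pair differed in sign any longer. *Clock* and *Per1* were opposed in males (r = -0.973, rho -0.964) and less so in females (r = -0.499, rho -0.539). *Nr1d1* and *Nr1d2*, whose proteins act alike, had r of 0.795 in males and 0.178 in females, and without the 2 ovary-rich females it was 0.591. The correlations are descriptive, the 2 genes of a pair share the size factor of each library, and the difference between the sexes was not tested.

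**Figure D5:**
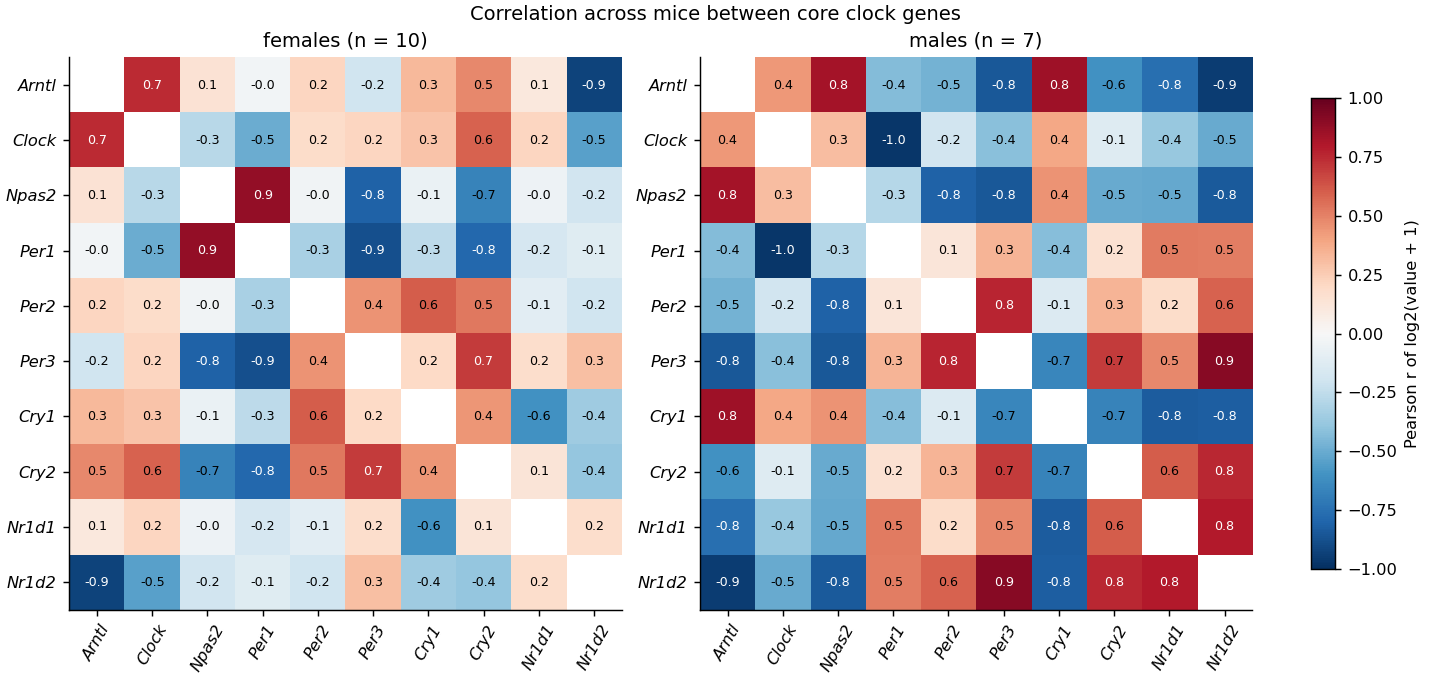
Pearson's r across mice between each pair of core clock genes (log2 of the value plus 1) in 10 females and 7 males, with red for pairs that vary together and blue for opposed pairs. *Arntl* with *Nr1d2* is near -0.9 in both sexes, and *Per1* with *Per3* is -0.879 in females and 0.338 in males. With the genotype means taken out (not drawn), *Per1* with *Per3* was -0.839 in females and -0.439 in males.

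A wider list of 16 clock genes (*Dbp*, *Tef*, *Hlf*, *Nfil3*, *Bhlhe40*, *Bhlhe41*, *Ciart*, *Rora*, *Csnk1d*, *Csnk1e*, *Fbxl21*, *Btrc*, *Noct*, *Usp2*, *Nampt* and *Wee1*) was set beside the core genes. None passed for genotype in females or in males. For the slope on *Arntl*, 0 passed in females and 1 in males, *Nfil3*, which rose by 1.86 on the log2 scale per log2 unit of *Arntl* (SE 0.29, adjusted p = 0.0298). *Nfil3* had 644, 246 and 304 normalized counts in WT males and 883, 513, 414 and 704 in U9-KO males, in the same order as *Arntl* in all 7 mice (rho = 1). Leaving out WT male 1 or U9-KO male 2 ended the call, with adjusted p of 0.662 and 0.0828. The slope in females was 1.60 (SE 0.49, adjusted p = 0.217).

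*Dbp*, an output of the clock, was the gene most like *Nr1d2* among the 12875 others. It had 109, 119, 137, 310 and 321 normalized counts in WT females and 324, 296, 122, 128 and 144 in U9-KO females. The females thus fell into 2 sets without values between 144 and 296, and the 4 high mice were the 4 with the lowest *Arntl*. Within the 6 others r of *Dbp* with *Arntl* was -0.894 (exact permutation p = 0.0153, adjusted 0.556). In these 2 sets the adipocyte sum was between 143313 and 294481 in the 4 mice and between 225312 and 341405 in the 6, and the ovary sum between 4672 and 138505 and between 3605 and 28093, and their part was not tested. In males *Dbp* had 317, 482 and 305 in WT and 157, 165, 211 and 136 in U9-KO mice, without overlap. The log2 difference was -1.12 (SE 0.19, adjusted p = 0.612). Of the 16 genes, 3 had U9-KO males entirely below WT males (*Dbp*, *Tef* and *Csnk1d*, the last named after its values were seen), where 3.80% of all genes did. *Wee1*, *Ciart* and *Usp2* were among the others with large slopes on *Arntl*, at -1.22, -1.17 and 0.20 in females and -0.22, -0.88 and 0.99 in males, and none of these 3 passed.

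Other genes with the most similar pattern were taken by the smaller r over both sexes among genes outside both lists. For *Arntl* they were *Ppp2r1a* (r = 0.839 in females and 0.928 in males), *Ehbp1l1* and *Fkbp1a*. For *Clock* they were *C130083M11Rik* (0.917 and 0.957), *Sh3glb1* and *Kif1b*. For *Npas2* they were *Myh10* (0.793 and 0.865), *Speg* and *BC034090*. The *Per* genes were followed most closely by *Fhl3* (0.905 and 0.850), *Spata13* and *Mrc2* for *Per1*, by *F630028O10Rik* (0.865 and 0.850), *Padi4* and *Grk2* for *Per2*, and by *Pdcd4* (0.747 and 0.745), *Fbxl20* and *Adssl1* for *Per3*. The *Cry* genes were followed by *Gnl3* (0.861 and 0.938), *Sox5* and *Gnl2* for *Cry1* and by *Grk6* (0.863 and 0.849), *Map4k2* and *Rcan1* for *Cry2*. For *Nr1d1* they were *Gm14286* (0.773 and 0.765), *Gipr* and *Gm20300*, and for *Nr1d2* *4833420G17Rik* (0.820 and 0.970), *Ero1lb* and *Edem2*. They are the highest of 12876 genes searched over 10 and 7 mice.

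Ratios of 2 genes in the same library do not depend on the size factor and could be set side by side for the sexes. The log2 ratio of *Npas2* to *Arntl* was between -1.77 and -0.77 in the 10 females and between -2.75 and -1.96 in the 7 males, without overlap. It was the only one of several ratios computed without overlap, and the share over ratios of all genes was not computed. Female libraries also held ovary RNA and had lower adipocyte sums, and the part of these was not tested. The log2 ratio of *Per3* to *Per1* was between -1.68 and 0.13 for females, against -0.43 to 0.64 for males. The ratio of *Nr1d2* to *Arntl*, whose genes ran opposite to each other, covered -0.49 to 1.23 in females and -0.84 to 1.44 in males. The deposited values of females and males overlapped for all 10 genes, where 11.8% of 26289 genes did not overlap.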

How the data were processed

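Whole pWAT RNA of 17 mice was made into stranded libraries and sequenced from both ends. The authors trimmed the reads, aligned them with STAR 2.7.3a and counted them per gene with summarizeOverlaps. The authors then divided the counts by size factors from DESeq2 1.28.1 and rounded them. This deposited score is no longer a count, so the depth in reads is unknown and no count model was used. The median ratio to the mean of all libraries was 1.03 to 1.06 for females, against 0.948 to 0.963 for males, and within a sex it was 1.003 to 1.006. For 2 male libraries the column name and the label disagree in replicate number, and the label was followed.

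Identifiers were named with GENCODE M21 (GRCm38), which matched 55141 of 55401. Any 2 mice of a group (29 pairs) differed in at least 24469 genes. Whether mice of a group came from separate litters is not given, so p-values measure the spread between these mice. The tests were limma 3.58.1 in R 4.3.3 (lmFit and eBayes with a trend) on log2(value + 1), a scale that understates the change of low genes. Genes with a total of at least 10 were kept, and a gene was called at a Benjamini-Hochberg adjusted p under 0.05. Correlations with *Arntl* had permutation p-values (100000 resamples in females, all 5040 orders in males). Scripts were tested on simulated data. The members and lists were chosen with earlier results of these data known. Named genes were the members, companion genes that passed or were among the 5 largest slopes in a sex, and the 3 genes most like each member. Some companion genes are not reported here. The leaving out of ovary-rich females and the split at a *Dbp* value of 200 were chosen after the data were seen.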

Additional observations from a re-analysis of the deposited data

Results flagged for a closer look

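Of 75 sets of values (the 10 core clock genes, 6 companion genes, the sum over genes and the marker sums, in each group of 4 or 5 mice), 10 held a mouse apart from the others by Dixon's criterion at 95%, where chance gives about 1 in 20, or 3.75. None of the 10 core clock genes was among them. *Tef* was 2892 in U9-KO female 2 where the other U9-KO females had 1367 to 1704, and this mouse also had the highest *Per3*. *Ciart* was 17 in WT female 2 against 37 to 44, and *Usp2* was 221 in WT female 4 against 249 to 258. The sum of normalized counts was 28620744 in U9-KO female 3 against 21490907 to 23313183. The ovary sum was 122887 in WT female 4 and 138505 in U9-KO female 1, the oviduct sum 8066 in WT female 3 and 1808 in U9-KO female 4, the epididymis sum 716 in U9-KO female 1, and the leukocyte sum 1618 in WT female 4. In males the epididymis sum was at most 9, and *Lcn5* and *Adam7* of its 5 genes were at most 3 in every mouse of either sex. The epididymis sum was therefore not read as a sign of that tissue. No genotype difference of a core clock gene passed the test of the interaction with sex.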

How the results depend on the processing

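The genotype difference gave 0 genes in females, in males, over both sexes and for the interaction. It gave 1 gene without the trend in females, in males and over both sexes, 1 over both sexes with a pseudocount of 0.5 or no filter, and 1 for the interaction with no filter. Leaving out each mouse gave 0 for females and 0 to 71 for males, the 71, *Per3* among them, without WT male 1. The slope on *Arntl* in females gave 0 genes, 1 in the 6 females of low *Dbp* and 0 to 41 with single mice left out, the 41 without U9-KO female 2. In males it gave 228 genes, against 112 with no filter, 0 without the trend, 704 without the genotype covariate and 0 to 504 with single males left out. It gave 0 without WT male 1, 4 without WT male 2, 15 without U9-KO male 2, 102 without U9-KO male 4 and 504 without U9-KO male 1. The cause was not tested. Correlation with *Arntl* gave 0 genes under all settings.

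Replicate numbers did not pair the mice, since the deviations of mice with the same number correlated at -0.445 to 0.110 for females and -0.117 to -0.0105 for males. With the replicate block, 0 genes passed for genotype in either sex and 0 for the slope in males, where *Nr1d2* had a slope of -0.82 and *Nfil3* of 1.12.

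Among 36 values of named genes, 14 of 573 alternatives turned the sign, all for differences in females near 0. Leaving out single females moved *Arntl* between -0.0978 and 0.0552, *Clock* between -0.0294 and 0.0721, *Cry1* between -0.0459 and 0.206 and *Nr1d2* between -0.0360 and 0.251. *Clock* was -0.0188 with quantile normalization and -0.0211 without the 2 ovary-rich females, where *Per2* was -0.000103. The slope of *Nr1d2* in males lost its call with no filter (adjusted p = 0.0535) and without the trend (0.326).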
